A study of Homo sapiens with 8 samples.

Results

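The genes described here control the RAS switch: the exchange factors RASGRP1, RASGRP2, RASGRP3, RASGRP4, SOS1 and SOS2, the GTPase activators RASA1 and NF1, and the RAS gene NRAS. They are 9 of 20163 protein coding genes and were chosen by their known function, with earlier results of these data already known. For each, the FLI1 peak with the highest -log10 q centred within 3 kb of any annotated transcription start site (TSS) was taken, together with the peaks inside the gene. FLI1 ChIP-Seq was performed in OCI-Ly1 and VAL, established lines of germinal center B-cell-like (GCB) diffuse large B-cell lymphoma. Neither line was treated, and the study describes a BCL2 translocation in OCI-Ly1 and concomitant BCL2 and MYC translocations in VAL. Each line had 2 FLI1 libraries (labelled rep1 and rep2, with nothing to say whether they came from separate cultures), made with a rabbit polyclonal antibody from DNA pooled over parallel precipitations, and 4 samples of input DNA were not analysed here.

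RAS proteins are membrane-bound GTPases that are active with GTP and inactive with GDP. Exchange factors load GTP. SOS proteins are brought to the membrane by the adaptor GRB2. RASGRP proteins such as RASGRP1 and RASGRP3 bind diacylglycerol, the lipid that phospholipase C gamma makes after B-cell receptor engagement. GTPase activators such as NF1 and RASA1 return RAS to the GDP form. FLI1 is an ETS transcription factor, and ETS proteins bind DNA at a GGAA core.

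The sequences under the peaks are shown first, as a description. Of the 12 passing peaks of these genes (-log10 q of at least 3), counted library by library, 5 held the full ETS motif given below (41.7%). Over all passing promoter peaks the share was near this, 44.7% in OCI-Ly1 rep2, 53.5% in VAL rep1 and 37.7% in VAL rep2. Around the FLI1 summits of NRAS, NF1 and SOS1, GRCh37 holds a full ETS motif, CCGGAAG or CCGGAAA, in capitals below. All 3 motifs read along the minus strand, which is the sense strand of NRAS and SOS1.
NRAS (chr1:115259371-115259399, minus): agcgggcggggCCGGAAGtgccgctcctt
NF1 (chr17:29421985-29422013, minus): atgacaccccaCCGGAAGtgggatccttt
SOS1 (chr2:39348220-39348248, minus): ttcaccgggagCCGGAAAacccggagcga
The NRAS and NF1 sites shared the 9-base run CCGGAAGTG. The NRAS motif lies 4 to 10 bp downstream of the TSS of the gene, and the NF1 motif 1 to 7 bp downstream of its canonical TSS, both in the first exon, in the 5′ UTR. The SOS1 motif lies 39 to 45 bp upstream of the canonical TSS.

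The RASGRP genes and SOS2 had no such motif within 50 bp of a passing summit. The GGAA core closest to the strongest summit is in capitals, and is shown because the letters around it differ from the CCGGAA of the sites above.
RASGRP1 (chr15:38857119-38857148, minus): ccggggcacccgcGGAAagggggcaggttt
RASGRP2 (chr11:64512714-64512743, minus): tgtctcgaaaacaGGAAcccgagctggggg
RASGRP3 (chr2:33701674-33701703, plus): gccccagcttgaaGGAAacagctgctctcg
SOS2 (chr14:50698167-50698196, minus): ccgcctcggcggaGGAAgccgaccccgggg
A GGAA core alone carries little information, since 63.9% of windows of 50 bp to each side of the canonical TSS of protein coding genes held it on either strand, and it is part of the longer motifs.

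Of the 4 FLI1 libraries, 3 gave usable lists of sites. A peak is called passing here when its -log10 q is at least 3, the level of the FDR of 0.001 in the study's methods. The study set that FDR for HOMER peaks, so the passing peaks here are not the study's peak set. OCI-Ly1 rep2 had 5354 passing peaks, VAL rep1 had 973 and VAL rep2 had 6474. OCI-Ly1 rep1 was deposited as 37 intervals, and the only passing one covers chromosome 2 nearly from end to end, with RASGRP3 and SOS1 inside it. It locates no site and was not used, so OCI-Ly1 below always means rep2, which has no replicate error.

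A passing promoter peak was found at 7 of the 9 genes (77.8%) over the 3 libraries together, where 27.4% of all protein coding genes had one. In OCI-Ly1 there were 4 (RASGRP3, SOS2, NF1 and NRAS; 44.4%), against 19.0% of coding genes. VAL rep1 had 1 (RASGRP3; 11.1%), against 3.14% of coding genes. VAL rep2 had 6 (RASGRP1, RASGRP2, RASGRP3, SOS1, NF1 and NRAS; 66.7%), against 20.8%. RASGRP3, NF1 and NRAS passed in both cell lines, where the share of coding genes was 12.6%, and RASGRP3 passed in all 3 libraries, as did 2.73% of coding genes. The count of VAL rests on replicate 2, since without it the count was 1 in VAL and 1 in both lines. The genes have a median of 15 annotated TSS each, against 5 for all coding genes, so more positions were searched for a peak. No test was made of these shares, because the genes were chosen, with earlier results of these data known, and not sampled.

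**Figure D1:**
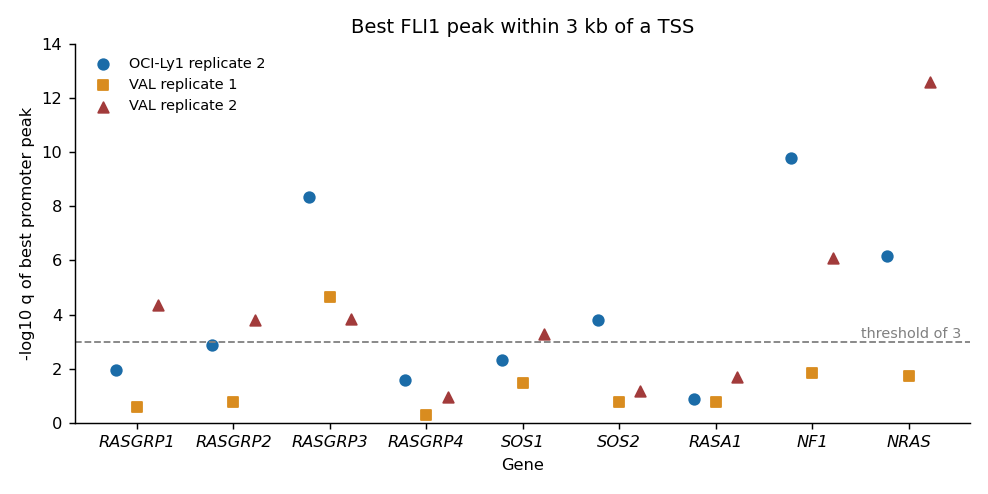
Highest -log10 q of a FLI1 peak centred within 3 kb of a TSS (vertical axis) for each gene (horizontal axis) in the 3 usable libraries, each point being 1 peak of 1 library. RASGRP3 lies above the dashed threshold of 3 in every library, NF1 and NRAS in OCI-Ly1 and VAL rep2, and RASGRP4 and RASA1 in none.

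RASGRP3 (ENSG00000152689; chromosome 2, 33661391 to 33789817, plus strand), a diacylglycerol-responsive exchange factor of B cells, was the only RASGRP gene with a passing promoter peak in both lines. Its -log10 q was 8.33 in OCI-Ly1, 4.66 in VAL rep1 and 3.84 in VAL rep2. The fold enrichments over the local background were 8.09, 5.61 and 5.53 in this order, so the VAL replicates lay close together and below OCI-Ly1. These folds come from 10, 14 and 8 reads at the summit, with exact Poisson 95% intervals of 4.80 to 18.4, 7.65 to 23.5 and 3.45 to 15.8, which overlap. Intervals on reads cover counting error only. The read totals of the libraries are unknown, and no test compared the libraries.

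The RASGRP3 peak does not lie at the 5′ end of the annotated gene. It covers the canonical TSS at 33701716, which is 40.3 kb inside the gene, and the summits were 13, 23 and 51 bp upstream of that TSS. The peak ran from 33701551 to 33701865 in OCI-Ly1, from 33701498 to 33701801 in VAL rep1 and from 33700796 to 33701779 in VAL rep2. No other passing peak was centred inside the gene or within 3 kb of its 15 TSS.

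RASGRP1 (ENSG00000172575; chromosome 15, 38780304 to 38857776, minus strand), the exchange factor best known from T cell receptor signalling and also expressed in B cells, passed in VAL rep2 alone. Its -log10 q was 4.34 there, 1.94 in OCI-Ly1 and 0.576 in VAL rep1. The VAL rep2 peak, from 38856824 to 38857619, had a fold enrichment of 5.84 and 7 reads (2.81 to 14.4), and its summit lay 114 bp upstream of the canonical TSS. In OCI-Ly1 the summit was 21 bp away, with 5 reads (1.62 to 11.7) where 7 were needed to pass. VAL rep1 listed no peak within 100 bp of this site, and its value comes from a weak peak 2147 bp from a TSS. The call at RASGRP1 was thus not shared by the VAL replicates. The study has other data on this gene, not analysed here. It lists RASGRP1 primers for ChIP-qPCR and names RASGRP1 among the transcripts that FLI1 positively regulated.

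RASGRP2 (ENSG00000068831; chromosome 11, 64494383 to 64512928, minus strand), known as CalDAG-GEFI and an activator of RAP1, also passed in VAL rep2 alone, with 2 separate peaks. The stronger, from 64512551 to 64513123, had a -log10 q of 3.79, a fold enrichment of 5.52 and 7 reads (2.81 to 14.4). The other, from 64514049 to 64514895, had a -log10 q of 3.76 and 6 reads (2.20 to 13.1), and its summit was 1361 bp upstream of the gene. The stronger site reached 2.89 in OCI-Ly1, with 6 reads (2.20 to 13.1) and 7 needed, the closest value under the threshold among the 9 genes. In VAL rep1 it was 0.757. The 3 summits at this site were spread over 156 bp, the widest spread of the 7 sites, and they lie over 1 kb upstream of the canonical TSS, with another annotated TSS of the gene at most 166 bp away.

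RASGRP4 (ENSG00000171777; chromosome 19, 38899691 to 38916945, minus strand), a RASGRP best known from mast cells and other myeloid cells, had no passing peak. Its highest promoter values were 1.57, 0.285 and 0.952 in OCI-Ly1, VAL rep1 and VAL rep2. These came from a different place in each library, that of VAL rep1 lying upstream of the gene, and the peaks had 4, 7 and 3 reads where 6, 14 and 6 were needed. In VAL rep2, 19.6% of coding genes had a lower value than RASGRP4. A passing site of this list, 34.3 kb outside the gene, sat 2 bp from a TSS of PSMD8, a proteasome subunit gene.

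SOS1 (ENSG00000115904; chromosome 2, 39189347 to 39351486, minus strand) and SOS2 (ENSG00000100485; chromosome 14, 50583848 to 50698296, minus strand), the GRB2-linked exchange factors found in most cell types, each passed in 1 library, and not in the same line. SOS1 had a -log10 q of 3.27 in VAL rep2, the passing value closest to the threshold among the 9 genes, with 6 reads (2.20 to 13.1) and a fold enrichment of 5.15. In OCI-Ly1 it had 2.32, with 5 reads (1.62 to 11.7), and the summit was only 8 bp away. SOS2 had a -log10 q of 3.82 in OCI-Ly1, with 6 reads (2.20 to 13.1) and a fold enrichment of 5.45. Its value in VAL rep2 was 1.17, with 4 reads (1.09 to 10.2) at a summit 34 bp away. At the background of VAL rep2 at this site, 0.448 reads against 0.285 in OCI-Ly1, 7 reads were needed to pass and 6 in OCI-Ly1. The read intervals of the lines overlap at both genes, and the difference between lines was not tested. VAL rep1 listed no peak within 100 bp of either site.

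NF1 (ENSG00000196712; chromosome 17, 29421945 to 29709134, plus strand) encodes neurofibromin, a GTPase activator that switches RAS off and is lost in neurofibromatosis. Its -log10 q was 9.79 in OCI-Ly1, the highest of the 9 genes in that list, 1.85 in VAL rep1 and 6.10 in VAL rep2. The fold enrichments were 8.81, 3.81 and 6.83. VAL rep1 had 13 reads at the summit (6.92 to 22.2), more than the 12 reads of OCI-Ly1 (6.20 to 21.0) and the 8 of VAL rep2 (3.45 to 15.8), but its local background was 2.68 reads against 0.475 and 0.318. At that background 15 reads were needed to pass. The 3 summits lay within 30 bp of each other, 17 bp upstream to 13 bp downstream of the canonical TSS. The same peaks are within 3 kb of the start of the lncRNA gene MIR4733HG and of the microRNA gene MIR4733, so they cannot be given to NF1 alone. Where a peak counted only for the gene with the closest TSS, the call of NF1 in VAL rep2 ended, since a TSS of these genes was 54 bp from the centre of that peak and that of NF1 188 bp, and the genes passing in both lines were 2 in place of 3.

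RASA1 (ENSG00000145715; chromosome 5, 86563700 to 86687748, plus strand) encodes p120 RasGAP, an activator that binds phosphorylated receptors through its SH2 domains, and had no passing peak. Its values were 0.875 in OCI-Ly1, 0.757 in VAL rep1 and 1.71 in VAL rep2, with 4, 5 and 4 reads where 7, 9 and 6 were needed. The VAL rep1 value came from another place, with a summit 70768 bp downstream of the canonical TSS and 679 bp from another TSS of the gene. A passing peak lay 20.9 kb outside RASA1 in both OCI-Ly1 (-log10 q of 3.82) and VAL rep2 (12.8). It was centred 57 and 8 bp from a TSS of CCNH, the cyclin H gene next to it.

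NRAS (ENSG00000213281; chromosome 1, 115247090 to 115259392, minus strand), a RAS gene mutated in many blood cancers, had the highest value of all, 12.6 in VAL rep2. It reached 6.15 in OCI-Ly1 and 1.72 in VAL rep1. The fold enrichments were 10.2, 6.86 and 4.28 in this order, so OCI-Ly1 lay between the VAL replicates. The reads were 12 (6.20 to 21.0), 8 (3.45 to 15.8) and 9 (4.12 to 17.1), over a local background of 0.278, 0.311 and 1.34 reads. NRAS has a single annotated TSS, and the 3 summits lay within 5 bp of it.

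**Figure D2:**
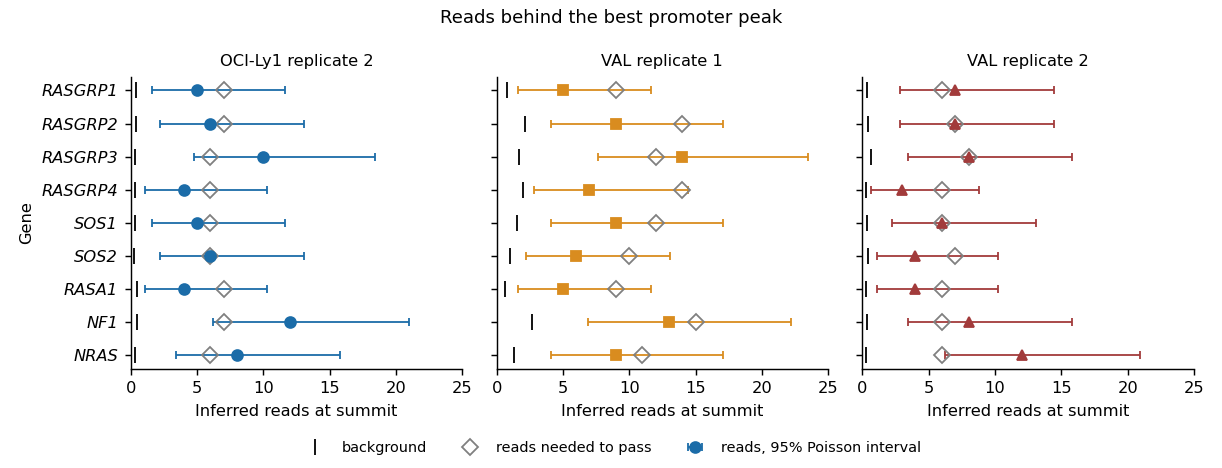
Reads at the summit of the best promoter peak of each gene (filled symbols with exact Poisson 95% intervals), the local background (bars) and the fewest reads that would have passed at that background (open diamonds), in number of reads, 1 panel per library. The intervals are wide in every panel, from 0.619 to 23.5 reads over all points, and the requirement in VAL rep1 is 9 to 15 reads against 6 to 8 in the other libraries.

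Set among all 20163 protein coding genes, the median of the 9 best promoter values was 2.89 in OCI-Ly1, 0.757 in VAL rep1 and 3.79 in VAL rep2. The medians of all coding genes were 1.22, 0.183 and 1.64. NRAS exceeded 90.3%, 93.8% and 96.1% of coding genes in OCI-Ly1, VAL rep1 and VAL rep2, and NF1 94.3%, 94.6% and 90.0%. These genes ranked alike in VAL rep1 and in the other lists, even though they did not pass in the former. RASGRP3 exceeded 93.0%, 98.1% and 83.9%. RASGRP1 exceeded 68.6%, 80.5% and 85.9%, and RASA1 44.4%, 82.3% and 52.3%. In VAL rep1 most genes have weak peaks or none, so that a -log10 q of 0.757 already exceeds 82.3% of them.

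Peaks of other libraries were counted at the same site when their summit lay within 100 bp of the strongest passing one. At NRAS the 3 summits spanned 10 bp, at NF1 30 bp and at RASGRP3 38 bp. At SOS1, RASGRP1 and SOS2, where 2 libraries listed a peak at the site, they spanned 8, 21 and 34 bp. Listed peaks that did not pass were present at SOS1, RASGRP1 and RASGRP2 in OCI-Ly1 and at SOS2 in VAL. The spans are limited by the rule, which left out summits beyond 100 bp. The lists are also long, with 1107379 peaks in OCI-Ly1 and 986629 in VAL rep2, of which 0.483% and 0.656% passed.

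In all, 12 passing peaks belong to the 9 genes, and 5 of them had CCGGAAA or CCGGAAG on either strand within 50 bp of their own summit (41.7%). They were the 2 peaks of NF1, the 2 of NRAS and that of SOS1. The 2 peaks of NF1 hold the same motif copy, as do the 2 of NRAS, so a site called in 2 libraries counts again. None of the 6 peaks of RASGRP1, RASGRP2 and RASGRP3 had it, although RASGRP2 had a copy at an offset of -275 bp from its summit (negative: upstream). Over all passing promoter peaks the share was 44.7% in OCI-Ly1, 53.5% in VAL rep1 and 37.7% in VAL rep2, and it was 4.01%, 4.19% and 3.25% in windows 250 bp from the summits and 10.3% at the canonical TSS of coding genes. The genes as a whole are thus near the share of all passing promoter peaks, and with 6 peaks from 3 genes the lack of the motif at RASGRP genes is a description. The motif centre was 2 bp from the NRAS summit of VAL rep2 and 11 bp from that of OCI-Ly1, 21 and 9 bp away at NF1, and 28 bp away at SOS1. All 12 peaks had at least 1 GGAA, as had 83.6 to 89.0% of all passing promoter peaks. The GC content within 50 bp of the summits ran from 55.4% at RASGRP3 to 84.2% at SOS2, around the medians of 66.3 to 66.8% over all passing promoter peaks.

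**Figure D3:**
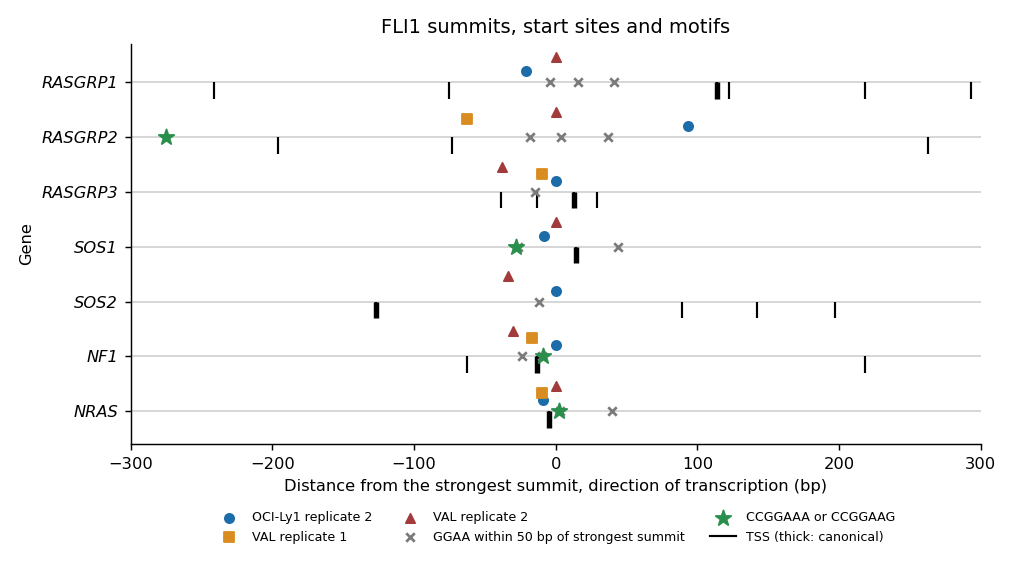
Positions in bp relative to the strongest passing summit of each gene, in the direction of transcription, for the 7 genes with a passing promoter peak. Symbols above each line are the summits of the libraries, ticks below it the TSS (thick for the canonical TSS), crosses GGAA cores within 50 bp of the strongest summit and stars the motif CCGGAAA or CCGGAAG. The motif lies next to the summits of NF1, NRAS and SOS1, and the canonical TSS of RASGRP2 is 1118 bp downstream, outside the plotted range.

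Beyond the promoters, none of the 9 genes had a passing peak. The share of all coding genes with such a peak was not counted, so this is a description and not a trait of these genes. Inside them, and over 3 kb from each of their TSS, OCI-Ly1 listed 264 peaks, VAL rep1 listed 54 and VAL rep2 listed 213, with highest -log10 q values of 2.62, 1.01 and 2.27. The value of 2.62 was reached at RASA1, from 86571440 to 86571761, and at NF1, from 29473510 to 29473922, with 5 reads each, and VAL rep2 reached 2.27 at another place in NF1. RASGRP4 had 2.49 with 5 reads in OCI-Ly1 (38912510 to 38913240), above its own promoter value. Listed peaks that did not pass were frequent, with 109 peaks inside NF1 in OCI-Ly1, covering 11.4% of the gene, and a weak listed peak in a gene this long locates little.

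The other genes of the RAS pathway were given by a list of 45, also chosen with earlier results of these data known. A passing promoter peak was present at 14 of them in OCI-Ly1 (31.1%, against 19.0% of coding genes), at 3 in VAL rep1 (6.67%, against 3.14%) and at 16 in VAL rep2 (35.6%, against 20.8%). With the VAL replicates joined it was 17 (37.8%, against 21.1% of coding genes), and without VAL rep2 it was 3. The list has a median of 9 TSS per gene.

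The kinase genes ARAF, BRAF, MAP2K1, MAP2K2, MAPK3 and KSR1, which carry the signal below RAS, had no passing promoter peak in the 3 libraries. Their highest value was 2.7, at ARAF and MAP2K1 in VAL rep2. Of the exchange factors RASGRF1 and RASGRF2, the first had 4.46 in OCI-Ly1, at a summit 86242 bp downstream of its canonical TSS. Among relatives of NRAS, RRAS had 4.33 in VAL rep2 and 2.43 in OCI-Ly1, and HRAS, RRAS2 and MRAS did not pass.

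Of the 3 SPRED genes, whose proteins hold RAS signalling back together with NF1, 2 passed in at least 1 of the 3 libraries, against 27.4% of coding genes. SPRED1, which brings NF1 to the membrane, passed in all 3 libraries, with 7.90 in OCI-Ly1, 3.78 in VAL rep1 and 8.38 in VAL rep2. Its relative SPRED2 had 10.6 in OCI-Ly1 and 15.04 in VAL rep2. SPRED3 did not pass. Of the 8 GTPase activator genes, 5 passed in at least 1 of the 3 libraries, against 27.4% of coding genes. Among the 8, DAB2IP and RASA4 passed in both lines, RASA2 in OCI-Ly1 (4.99) and RASAL3 in VAL rep2 (3.84). RASA3, RASAL1 and RASAL2 did not pass. DAB2IP had 7.78 and 7.99 in OCI-Ly1 and VAL rep2, at summits 47783 and 47735 bp downstream of its canonical TSS. RASA4 (6.09 and 5.04, at different sites in the gene) has near-identical copies on chromosome 7, and the authors kept uniquely mapped reads only, so its values are uncertain.

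Upstream of RAS, DGKA was the strongest. It encodes a diacylglycerol kinase, which removes the lipid that RASGRP1 and RASGRP3 bind. DGKA passed in all 3 libraries, with 13.2 in OCI-Ly1, 6.34 in VAL rep1 and 16.9 in VAL rep2, from 14, 21 and 19 reads. Its relative DGKZ had 3.22 and 5.33 in OCI-Ly1 and VAL rep2. PTPN11, the phosphatase SHP2 that favours RAS activation, had 10.5 and 11.9 in the same libraries. The adaptor SHC1 had 6.48 in OCI-Ly1 and 3.23 in VAL rep1 but 2.24 in VAL rep2, where it did not pass. The passing SHC1 summits lay at -3595 bp (OCI-Ly1) and -3457 bp (VAL rep1) from its canonical TSS (negative: upstream). PLCG2, the phospholipase C gamma of B cells, passed in VAL rep2 (7.005, at a summit 42329 bp downstream of its canonical TSS) and stood at 1.49 in OCI-Ly1. RGL2, an exchange factor of RAL that acts below RAS, had the highest value of the list, 17.3 in OCI-Ly1, and 15.4 in VAL rep2. Of the 6 feedback inhibitors, 3 passed in at least 1 of the 3 libraries, against 27.4% of coding genes. SPRY1 passed in both lines (4.49 and 4.34), at a different site in each, DUSP5 (3.6) and DUSP6 (3.99) passed in VAL rep2, and SPRY2, SPRY4 and DUSP4 did not pass.

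**Figure D4:**
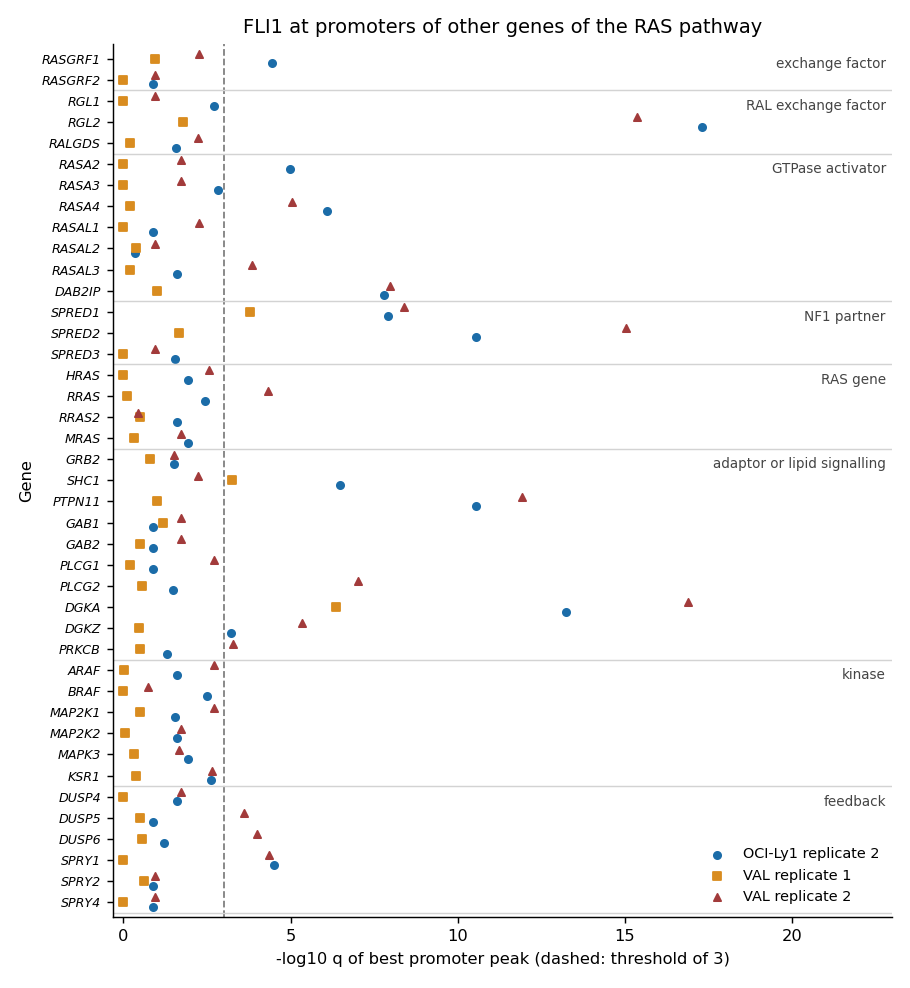
Highest -log10 q of a FLI1 peak centred within 3 kb of a TSS (horizontal axis) for other genes of the RAS pathway (vertical axis, by role), 1 symbol per library, with genes lacking a listed peak at 0. None of the kinase genes shown crosses the dashed threshold of 3, while DGKA and SPRED1 cross it in all 3 libraries. Of all coding genes, 27.4% cross it in at least 1 library and 2.73% in all 3.

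NRAS had the highest sum of -log10 q over the 3 libraries, 20.5. Coding genes with values close to it were KRBA2 (5.80, 1.18 and 12.2 in OCI-Ly1, VAL rep1 and VAL rep2, at a Euclidean distance of 0.741) and CCNT1 (5.53, 1.15 and 12.8, distance 0.855). This likeness rests on 3 libraries.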

How the data were processed

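FLI1 ChIP-Seq was analysed in OCI-Ly1 and VAL. Per the study's methods, the authors mapped reads to GRCh37 with bowtie2 and kept unique, non-duplicate reads of mapping quality 10 or more with SAMtools, whereas the submitters' processing notes name BWA and hg19. The authors deposited 1 peak list of 10 columns per FLI1 library. The methods name HOMER, and the caller and control of these lists are not given in the sources used here. The deposited fold is a linear ratio of summit pileup to local background, with 1 added to each. The deposited -log10 p and -log10 q are those of each summit. The deposited score is 10 times the -log10 p and was not used.

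Reads and background were inferred from the fold, (reads + 1) / (background + 1), and the Poisson p. The inference was tested on simulated data (4919 of 4920 peaks recovered). The read totals of the libraries are unknown here. The fewest reads of any passing peak were 6 in OCI-Ly1 rep2, 6 in VAL rep2 and 8 in VAL rep1. TSS came from GENCODE release 44 on GRCh37, and no peak ended beyond a chromosome of that build. Motifs were searched on both strands.

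The 9 genes and the pathway list were chosen with earlier results of these data known. Genes were named by a rule: all members, pathway genes passing in at least 2 libraries (other pathway genes were named after their values were seen), neighbours with a TSS within 3 kb of a passing peak, and the 3 genes closest in value to the strongest member. CCNH and PSMD8 were named after their values were seen. Some genes that the rule or the pathway list holds are counted but not reported by name here. No test compared groups. The alternatives covered the threshold, a minimum fold, the promoter definition, the replicates and the motif. Scripts ran in python 3.11.15 with pysam 0.24.0, scipy 1.17.1, pandas 2.3.3, matplotlib 3.10.9 and numpy 2.4.6.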

Additional observations from a re-analysis of the deposited data

How the results depend on the processing

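Of 77 recomputed counts, 60 stayed within 1.5 times the reported count and 17 moved by more. At a threshold of 5 on -log10 q, the genes with a promoter peak were 0 in VAL rep1, 2 in VAL rep2 and 2 in either VAL replicate, the pathway genes 9 in OCI-Ly1 rep2 and 10 in VAL, and the peaks inside the genes 0 in VAL rep1 and 1 in VAL rep2. At a threshold of 2, genes passing in both lines were 5, pathway genes of VAL 27 and peaks inside the genes in OCI-Ly1 rep2 were 10. Leaving out a VAL replicate gave 1 to 6 genes in VAL, 1 to 3 in both lines and 3 to 16 pathway genes, and asking for both VAL replicates gave 1, 1 and 2. With GGAA as the motif all 12 passing peaks had it. The promoter distance, TSS set, use of the summit, closest TSS and minimum fold moved none of the counts by over 1.5 times. Giving each peak to the closest TSS only still ended the call of NF1 in VAL, which left 5 genes in VAL rep2 and 2 in both lines. No count without OCI-Ly1 rep2 was possible, as the other list locates no site. No paired analysis was possible because the values come from no test and the replicate numbers of the lines name separate libraries. Most values rest on 4 to 14 reads, which limits what a value under the threshold can show.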
